A study of Zanthoxylum armatum with 15 samples.

Results

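Full-size fruits (Fr) of Zanthoxylum armatum were compared with mature leaves (ML) of the same planting. All unigenes (assembled transcripts, the longest of each gene) that passed a low-count filter entered the comparison, 57488 of 111318 or 51.6%. Z. armatum, green Sichuan pepper, is a spice tree of the citrus family whose fruits have a numbing taste. The plants were 3-year-old trees of the variety 'Hanyuan putaoqing', no treatment is named, and both organs were harvested in May. Fr and ML had 3 libraries each, and each library was made from material of 3 plants mixed together. Leaf buds (LB), stems (St) and roots (Ro), also with 3 libraries each, completed the series of 15 libraries and entered the same model. The sources used here do not say that pericarp, oil glands and seeds of the fruits were separated. In mixed tissue such as this, a lower level may come from fewer cells of a type or from less RNA per cell, and these cannot be told apart.

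Terpenes of plants are built from a common pair of isoprenoid precursors, made in the cytosol by the mevalonate pathway and in plastids by the methylerythritol phosphate (MEP) pathway. Prenyl diphosphate synthases join the precursors into chains, and terpene synthases turn the chains into the volatile monoterpenes and sesquiterpenes found in the oil glands of citrus relatives. The skin of fruits and leaves is covered with cutin, a polymer of hydroxy fatty acids, and with wax made from very long fatty acids, while leaves carry most of the photosynthetic machinery.

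The 6 libraries held between 19173523 and 23829321 counts. The fruit libraries differed more among themselves than the leaf libraries did, with a chi-square per unigene between replicates of 7.42 to 9.06 in fruits and 1.70 to 1.71 in mature leaves, where 1 is sampling noise alone. The correlation of log10 FPKM between replicates was 0.969 to 0.974 in fruits and 0.969 to 0.971 in mature leaves. FPKM is the number of fragments scaled to transcript length and to library size, and the FPKM values below are those deposited, whereas fold changes come from counts with TMM scaling (trimmed mean of M values) and are given as fruits over mature leaves. The 20 held members of the antenna protein list, used as a marker of green tissue, summed to 11090 FPKM in fruits and 27410 FPKM in mature leaves, with 7498 in leaf buds, 9957 in stems and 21.7 in roots. The fruits thus held these green-tissue transcripts at a level near that of stems, below mature leaves and far above roots.

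Differentially expressed genes (DEGs) were those with an adjusted p under 0.05 (edgeR's quasi-likelihood test, Benjamini-Hochberg adjustment over all unigenes tested) and an absolute log2 fold change over 1. Of the 57488 unigenes, 7032 (12.2%) were higher in fruits and 8030 (14.0%) were lower in fruits, together 15062 (26.2%). A further 9443 unigenes passed the adjusted p alone with a smaller fold change. The median log2 fold change over all unigenes was -0.06. All 3 fruit libraries lay above all 3 leaf libraries for 14732 unigenes (25.6%), and all 3 leaf libraries lay above all 3 fruit libraries for 17324 (30.1%). Among the DEGs this was so for 6888 of the 7032 higher and 7941 of the 8030 lower ones.

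The largest changes were more often toward fruits. An absolute log2 fold change over 5 was reached by 942 DEGs higher in fruits and by 735 lower in fruits, while the counts over 2 were 3727 and 3701. The typical DEG higher in fruits had a mean of 5.13 FPKM in fruits and 0.813 FPKM in mature leaves (medians over the 7032), and the typical DEG lower in fruits had 1.38 FPKM in fruits and 5.35 FPKM in mature leaves (medians over the 8030).

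**Figure D1:**
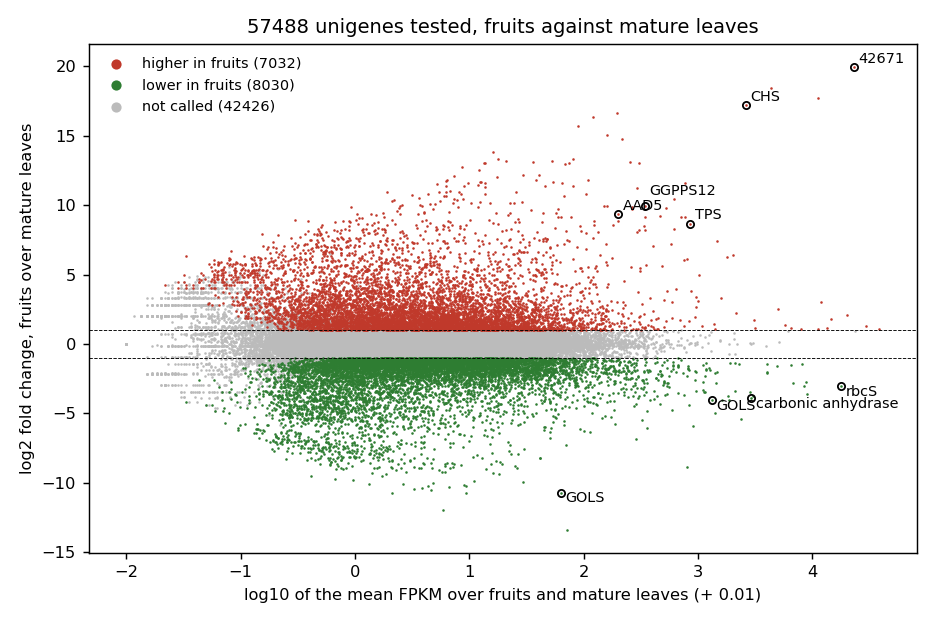
Each point is 1 of the 57488 unigenes tested, with the log10 mean FPKM over both organs (plus 0.01) on the horizontal axis and the log2 fold change of fruits over mature leaves on the vertical axis. Red points (7032) are higher in fruits and green points (8030) are lower in fruits, dashed lines mark a log2 fold change of 1 and -1, and circles mark unigenes described in the text, with the chalcone synthase CHS at 17.23 and the galactinol synthase GOLS at -10.75.

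The 5 unigenes with the largest fold change at 50 or more FPKM in fruits, with at least 1 count in mature leaves, included a chalcone synthase (CHS), which catalyses the first step of flavonoid synthesis. This CHS (Cluster-12235.42665) had 5809, 3786 and 6233 FPKM in the fruit libraries, against 0, 0.04 and 0.04 FPKM in the mature leaf libraries. It was also near 0 elsewhere, with means of 0.893 FPKM in leaf buds, 0.78 in stems and 0.04 in roots. The log2 fold change was 17.23 ± 0.42 (SE), with an adjusted p of 6.59e-17, and only 2 counts stood in the 3 leaf libraries together. With so few counts the ratio of the scaled totals, 173344-fold higher in fruits, has a 95% counting interval (exact binomial) of 47986 to 1431366. A cinnamyl alcohol dehydrogenase (CAD, Cluster-12235.44259), an enzyme of the last reduction before lignin monomers, had 169, 116 and 160 FPKM in fruits, against 0, 0.04 and 0 FPKM in mature leaves. From 2 leaf counts its ratio was 9389-fold (95% counting interval 2599 to 77532), and without the second leaf library its log2 fold change was 15.99 in place of 13.02. The other 3, Cluster-12235.43908, Cluster-12235.43799 and Cluster-12235.43649, have no gene name in the tables used here and had log2 fold changes of 14.78, 13.33 and 13.11. The leaf libraries held 1 count of the first, 2 of the second and 6 of the third, and the ratios of the first and second were 35569-fold (95% counting interval 6384 to 1404923) and 11563-fold (3201 to 95485). Leaving out the first leaf library gave 16.93 for the first, and leaving out the third gave 16.31 for the second.

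The unigenes of the study's own assembly are identified by the quantitative PCR primers designed against them, and a few pairs are shown here because they tie the largest fruit differences to a stretch of transcript. Each is written 5′ to 3′ in lower case with no part marked. They belong to CHS, to the most abundant of the monoterpene synthases (TPS and TPS03), to the prenyl diphosphate synthase GGPPS12 and to the deoxyxylulose phosphate synthase (DXS) with the largest fold change, and they are 22 to 25 bases long.
CHS Cluster-12235.42665 forward: cttatccagaaccgtgcctcag
CHS Cluster-12235.42665 reverse: aagtataaacaggacgcttggacc
TPS Cluster-12235.42000 forward: ctgcgacaaatccaatcatagagaa
TPS Cluster-12235.42000 reverse: ctcctctctttaattcgtccgatga
TPS03 Cluster-12235.42010 forward: gcaggaagatacttacgcaggtc
TPS03 Cluster-12235.42010 reverse: tttcatgtaatctggaagcggtt
GGPPS12 Cluster-12235.40340 forward: gcctagtcttattcccaaatccaag
GGPPS12 Cluster-12235.40340 reverse: gtgttatctcaaccatagcccgta
DXS Cluster-12235.38538 forward: tggctctttcttcttccttttcc
DXS Cluster-12235.38538 reverse: caccatcatattggcttcctcac

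Transcripts of both precursor routes were higher in fruits. The study grouped terpenoid and fatty acid enzymes that it had found raised in fruits in these same libraries, so the direction of the following enzyme groups is not independent evidence, and their sizes are what is described. All 7 mevalonate pathway unigenes were higher in fruits, with log2 fold changes of 1.03 to 4.30 and a median of 1.58, beside a median of -0.06 over all unigenes tested. HMG-CoA reductase (HMGR1, Cluster-12235.40934), the main control point of that pathway, had 209, 261 and 217 FPKM in fruits, against 10.8, 10.5 and 10.9 FPKM in mature leaves. The libraries of the 2 organs did not overlap, and the log2 fold change was 4.30 ± 0.13 (SE, adjusted p = 7.59e-16). The acetyl-CoA acetyltransferase ACAT2 (Cluster-12235.42348), which starts the pathway, differed less, with 196, 194 and 216 FPKM in fruits, against 68.9, 70.2 and 71.0 FPKM in mature leaves (log2 fold change 1.41). Phosphomevalonate kinase (PMVK, Cluster-12235.28045) had the smallest fold change of the group, 1.03.

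On the MEP route the largest fold changes were those of DXS unigenes. DXS commits pyruvate and glyceraldehyde phosphate to the pathway, and all 7 DXS unigenes of the group were higher in fruits, with log2 fold changes of 2.06 to 6.86. The summed DXS level was 878, 1163 and 1010 FPKM in fruits, against 31.4, 36.8 and 34.4 FPKM in mature leaves, and the mean sums in the other organs were 76.0 FPKM in leaf buds, 46.3 in stems and 45.4 in roots. The 3 most abundant in fruits shared this pattern. DXS Cluster-12235.46034 had 292, 353 and 285 FPKM in fruits, against 4.35, 4.64 and 5.17 FPKM in mature leaves (log2 fold change 5.92 ± 0.16, SE). DXS Cluster-12235.38535 averaged 277 FPKM in fruits and 2.93 FPKM in mature leaves, and DXS Cluster-12235.38538 averaged 209 FPKM in fruits and 1.62 FPKM in mature leaves. In all, 9 tested unigenes bear the DXS name, of which 8 were higher in fruits and 1, at -0.09, was not called. The names come from unigenes that the study listed as organ-specific or as differing in fruits in these same libraries. This count is therefore no independent evidence of direction either.

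Later MEP enzymes were higher in fruits too, with fold changes that overlapped those of DXS. All 6 GCPE unigenes (hydroxymethylbutenyl diphosphate synthase, the next-to-last step) were higher, by log2 fold changes of 1.05 to 4.22, and the most abundant, Cluster-12235.41588, had 423, 539 and 445 FPKM in fruits, against 159, 160 and 161 FPKM in mature leaves. The reductase HDR (Cluster-12235.50616), which ends the pathway, had 185, 238 and 199.2 FPKM in fruits, against 15.2, 15.5 and 13.5 FPKM in mature leaves (log2 fold change 3.70 ± 0.17, SE). The 3 ISPE and ISPF unigenes of the middle steps had log2 fold changes of 1.07 to 1.75. Mature leaves were above leaf buds, stems and roots for the summed GCPE level, at 369 FPKM against 219, 163 and 182 FPKM, which was not so for DXS.

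Prenyl diphosphate synthases set the chain length, and their 4 unigenes were all higher in fruits (log2 fold changes 3.13 to 9.93). GGPPS12 (Cluster-12235.40340) alone made up most of the group in fruits, with 676, 770 and 625 FPKM there, against 0.63, 0.63 and 0.69 FPKM in mature leaves. No fruit value came near any leaf value, the log2 fold change was 9.93 ± 0.32 (SE, adjusted p = 2.37e-14), and the mean was 5.61 FPKM in leaf buds. In Arabidopsis the protein of this name is a small subunit that has no chain-building activity alone. GGPPS11 Cluster-12235.57254 averaged 48.4 FPKM in fruits and 5.09 FPKM in mature leaves, GGPPS11 Cluster-12235.36761 averaged 16.98 FPKM in fruits and 0.557 FPKM in mature leaves, and GGPPS2 averaged 2.78 FPKM in fruits and was at 0 in all 3 leaf libraries, at least 37.0-fold higher in fruits against a floor of 3 counts over the leaf libraries.

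Monoterpene synthases had the largest median log2 fold change of the terpenoid groups, 8.29, or 7.51 with TPS-CIN at its lower bound. The 5 unigenes summed to 3069, 3475 and 2955 FPKM in fruits, against 7.85, 9.75 and 8.42 FPKM in mature leaves. The mean sums in the other organs were 51.2 FPKM in leaf buds, 34.98 in stems and 0.453 in roots, and the mean sum of mature leaves was thus below those of leaf buds and stems. TPS Cluster-12235.42000 had 1715, 1860 and 1557 FPKM in fruits, against 3.75, 4.45 and 3.75 FPKM in mature leaves (log2 fold change 8.63 ± 0.19, SE, adjusted p = 3.06e-16). TPS03 Cluster-12235.42010 had 1148, 1380 and 1198 FPKM in fruits, against 3.33, 3.97 and 3.64 FPKM in mature leaves (log2 fold change 8.29 ± 0.24, SE). These 2 unigenes carried most of the group's level in both organs. TPS03 Cluster-12235.37077 averaged 143 FPKM in fruits and 0.72 FPKM in mature leaves, TPS Cluster-12235.53695 averaged 46.4 FPKM in fruits and 0.323 FPKM in mature leaves, and TPS-CIN averaged 23.7 FPKM in fruits and was at 0 in mature leaves, at least 90.8-fold higher in fruits against the floor of 3 counts. Closely similar synthase unigenes may share reads, so the split of the level among them is less certain than their sum.

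Sesquiterpene synthases were less one-sided, since mature leaves held a clear level of some of them. All 5 were higher in fruits, with log2 fold changes of 1.06 to 8.48. TPS21 Cluster-12235.42686 had 648, 757 and 630 FPKM in fruits, against 1.69, 1.81 and 1.73 FPKM in mature leaves, and had the smallest adjusted p of the terpenoid unigenes (1.34e-18, log2 fold change 8.48 ± 0.15, SE). By contrast TPS21 Cluster-12235.43013 had 261, 308 and 255 FPKM in fruits, against 93.1, 88.9 and 92.6 FPKM in mature leaves (log2 fold change 1.46). The unigene named sesqui-TPS (Cluster-12235.34750) averaged 76.0 FPKM in fruits and 33.6 FPKM in mature leaves, with 0.48 FPKM in leaf buds and 0.353 FPKM in stems. The cytochrome P450 CYP82G2 (Cluster-12235.55818) was higher in fruits (log2 fold change 2.66), while CYP82G1 (Cluster-12235.55811), whose namesake in Arabidopsis forms volatile homoterpenes, missed the fold threshold at 0.99. Phytoene synthase (PSY, Cluster-12235.42859), which opens the carotenoid branch, averaged 93.3 FPKM in fruits and 0.507 FPKM in mature leaves (log2 fold change 7.39). Of 15 tested members of the carotenoid list 4 were higher and 4 lower (median -0.16), beside 12.2% and 14.0% over all unigenes.

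**Figure D2:**
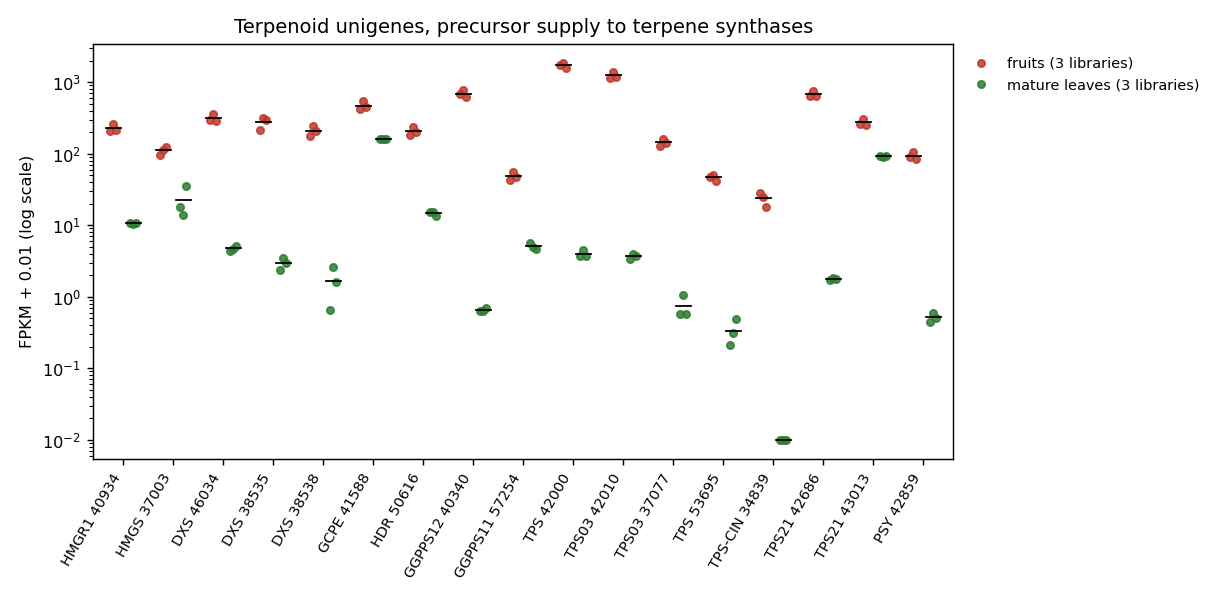
FPKM plus 0.01 on a log axis for 17 terpenoid unigenes, from precursor supply on the left to terpene synthases and phytoene synthase on the right, with the last part of each identifier after its name. Each point is 1 library (3 of fruits in red, 3 of mature leaves in green) and bars are means, with TPS Cluster-12235.42000 between 1557 and 1860 FPKM in fruits and between 3.75 and 4.45 FPKM in mature leaves.

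The annotation lists, drawn up by sequence similarity and not by expression, give a wider view. Most are held here only in part, and the counts are of members held and tested. Of 19 tested members of terpenoid backbone biosynthesis 12 were higher in fruits and 3 lower, with a median log2 fold change of 1.43, and of 15 in sesquiterpenoid and triterpenoid biosynthesis 11 were higher and 1 lower, with a median of 1.71. Both shares of higher members stand above the 12.2% over all unigenes. Several of the members are also in the enzyme groups above. The single lower member held of the sesquiterpenoid list was NES1 (Cluster-12235.5308), named for a nerolidol synthase, with a mean of 1.4 FPKM in fruits and 6.5 FPKM in mature leaves. Both tested unigenes named NES1 were lower in fruits, with log2 fold changes of -2.32 and -1.28. The monoterpenoid list, held whole with 11 members, was less one-sided than the monoterpene synthases. Of its 10 tested members 3 were higher in fruits and 2 lower, beside 12.2% and 14.0% over all unigenes. Leaving out any 1 fruit or leaf library gave 4 higher. The median was 0, and 2 of the 10 had 0 counts in 1 or both organs. A unigene with 0 counts in both organs also has a log2 fold change of 0, so this median need not mean equal levels. The 3 higher with all libraries included TPS Cluster-12235.42000 and TPS03 Cluster-12235.42010.

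Most unigenes of the study's fatty acid groups were higher in fruits, by factors that differed widely between members. The annotation lists were more mixed. Of 15 tested members of fatty acid biosynthesis 5 were higher in fruits and 3 lower (median 0.64). In degradation 4 of 13 were higher and 3 lower, and in elongation 7 of 16 and 1. In alpha-linolenic acid metabolism 5 of 16 were higher and 0 lower. The unsaturated fatty acid list had 4 of 11 higher and 4 lower. Its median was 1.48, or 0.27 with the member at 0 in an organ at its bound. Over all unigenes 12.2% were higher and 14.0% lower. The acyl-ACP desaturases place the first double bond in a plastid fatty acid. AAD5 Cluster-12235.42753 had 534, 268 and 397 FPKM in fruits, against 0.34, 0.73 and 0.61 FPKM in mature leaves, and its fruit values spread about their mean more than those of the terpene synthases. Its log2 fold change was 9.34 ± 0.31 (SE, adjusted p = 4.06e-15), while AAD5 Cluster-12235.43479 averaged 96.2 FPKM in fruits and 13.8 FPKM in mature leaves (log2 fold change 2.68). In Arabidopsis this gene is known from developing seeds. The share of seed in the fruit samples was not measured. An unnamed unigene of the unsaturated fatty acid list, Cluster-12235.42694, had 1475, 1538 and 1220 FPKM in fruits, against 2.61, 2.10 and 2.03 FPKM in mature leaves (log2 fold change 9.18).

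Both ketoacyl-ACP synthase II unigenes (KASII, log2 fold changes 1.46 and 1.50) and all 4 ketoacyl-ACP reductases (FabG, 1.23 to 3.23) were higher in fruits. Of 6 ketoacyl-CoA synthases, which lengthen fatty acids for wax, 5 were higher and KCS1 (Cluster-12235.48777) missed the threshold at 0.95. KCS6 (Cluster-12235.44549), a wax enzyme in Arabidopsis, had 163, 164 and 209 FPKM in fruits, against 56.2, 56.6 and 53.8 FPKM in mature leaves. Of 6 acyl-CoA synthetases 5 were higher and AAE16 (Cluster-12235.44635) was at 0.99. In beta-oxidation, the breakdown of fatty acids, 4 of 6 were higher and ACX3 (Cluster-12235.39988) and KAT2 (Cluster-12235.55699) were at 0.996 and 0.998 on the log2 scale, just under the threshold. The multifunctional MFP2 Cluster-12235.50349 was the largest there, with 81.5, 86.9 and 79.1 FPKM in fruits, against 2.41, 1.97 and 2.81 FPKM in mature leaves (log2 fold change 4.98).

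Wax enzymes included unigenes higher and unigenes lower in fruits. From here on most gene names belong to unigenes that the study listed as organ-specific or as differing in fruits in these same libraries, so the counts per name are no independent evidence of direction. CER1, which makes wax alkanes, had 7 unigenes, all higher in fruits. Of these, 2 had no counts in mature leaves, Cluster-12235.43412 had 2 (a ratio of 511.9-fold, 95% counting interval 141.4 to 4232), and the other 4 had log2 fold changes of 8.31 to 9.41. The most abundant, Cluster-12235.44346, had 96.9, 130 and 117 FPKM in fruits, against 0.11, 0.21 and 0.10 FPKM in mature leaves, with 14.8 FPKM in leaf buds. The fatty acyl reductases (FAR), which make alcohols, had 1 of 5 tested unigenes higher and 3 lower in fruits. FAR Cluster-12235.32576 had 31.7, 41.0 and 31.5 FPKM in fruits, against 122, 119 and 117 FPKM in mature leaves (log2 fold change -1.90), whereas FAR Cluster-12235.39471 averaged 71.4 FPKM in fruits and 12.8 FPKM in mature leaves (2.38). FAR Cluster-12235.31091 had no counts in fruits and 128 counts in mature leaves, a level at least 47.3-fold lower in fruits when 3 counts over the 3 fruit libraries are taken as the floor. In the cutin, suberine and wax list 11 of 18 tested members were higher and 3 lower in fruits (median 3.18), beside 12.2% higher and 14.0% lower over all unigenes, and 6 of the 11 were CER1 unigenes.

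Members of the phenolic enzyme families differed in direction. Of 19 tested members of the flavonoid list 12 were higher in fruits and 2 lower (median 2.03), and of 18 in the phenylpropanoid list 9 were higher and 1 lower (median 1.94, or 1.55 with members at 0 in an organ set to their bound). Over all unigenes 12.2% were higher and 14.0% lower. In the flavone and flavonol list 5 of 18 were higher and 9 lower, but 11 of the 18 are also the tested members of the indole alkaloid list, and they gave 3 of the 5 and 6 of the 9. The 9 were 6 without the first or without the third fruit library, and of the 7 members not shared 2 were higher and 3 lower. Of 8 CHS unigenes 5 were higher in fruits and none lower, and beside the one above CHS Cluster-12235.53197 averaged 133 FPKM in fruits and 16.3 FPKM in mature leaves. CHS Cluster-12235.44364 was not called, with 18.4, 17.8 and 20.4 FPKM in fruits and 19.7, 20.2 and 20.8 FPKM in mature leaves, and it was higher in leaf buds (85.6 FPKM). Of 5 CAD unigenes, with the one described above, 3 were higher in fruits and 2 lower. The hydroxycinnamoyl transferase HCT, which shuttles phenylpropanoid acids, had 7 of 13 unigenes higher and 2 lower. HCT Cluster-12235.41896 had 213, 247 and 196 FPKM in fruits, against 0.04, 0.04 and 0.08 FPKM in mature leaves (log2 fold change 11.82), and HCT Cluster-12235.75880 had 0, 0.28 and 0.41 FPKM in fruits, against 13, 11.04 and 12 FPKM in mature leaves (-5.75). CCoAOMT (Cluster-12235.38094), which methylates caffeoyl-CoA on the way to lignin, had 670, 655 and 501 FPKM in fruits, against 13.7, 13.1 and 16.5 FPKM in mature leaves (log2 fold change 5.29). The late enzymes of anthocyanin and tannin synthesis, DFR, ANS and ANR, were higher in fruits too (4 of 4 unigenes, log2 fold changes 1.27 to 3.20) but had their highest mean in leaf buds. DFR (Cluster-12235.39180) averaged 37.1 FPKM in fruits and 3.71 FPKM in mature leaves, with 320 FPKM in leaf buds.

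Amine and quinone enzymes were also among the large differences. Aromatic aldehyde synthases (AAS) turn aromatic amino acids into aldehydes, and all 3 unigenes were higher in fruits. AAS Cluster-12235.42500 had 193, 146 and 146 FPKM in fruits, against 0.03, 0 and 0.12 FPKM in mature leaves (log2 fold change 11.39 ± 0.48, SE, or 12.93 without the third leaf library). AAS Cluster-12235.45347 had 20.4, 3.49 and 3.09 FPKM in fruits, against 0.17, 0 and 0.12 FPKM in mature leaves, so 1 fruit library stood well above the others, and its log2 fold change of 6.43 was 4.95 without that library. Leaving out the first leaf library gave 7.02. These 3 unigenes gave all the higher members of the indole alkaloid list. In that list 6 of 11 tested were lower in fruits, or 3 without the first or without the third fruit library. Over all unigenes 12.2% were higher and 14.0% lower. The quinone reductase homologue wrbA (Cluster-12235.42355) had 2090, 1068 and 1607 FPKM in fruits, against 19.9, 19.9 and 21.8 FPKM in mature leaves (log2 fold change 6.16), and alcohol dehydrogenase ADH1 (Cluster-12235.39626) averaged 78.4 FPKM in fruits and 0.743 FPKM in mature leaves (6.60). Jasmonate methyltransferase JMT (Cluster-12235.46490) averaged 92.4 FPKM in fruits and 0.423 FPKM in mature leaves (7.65).

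**Figure D3:**
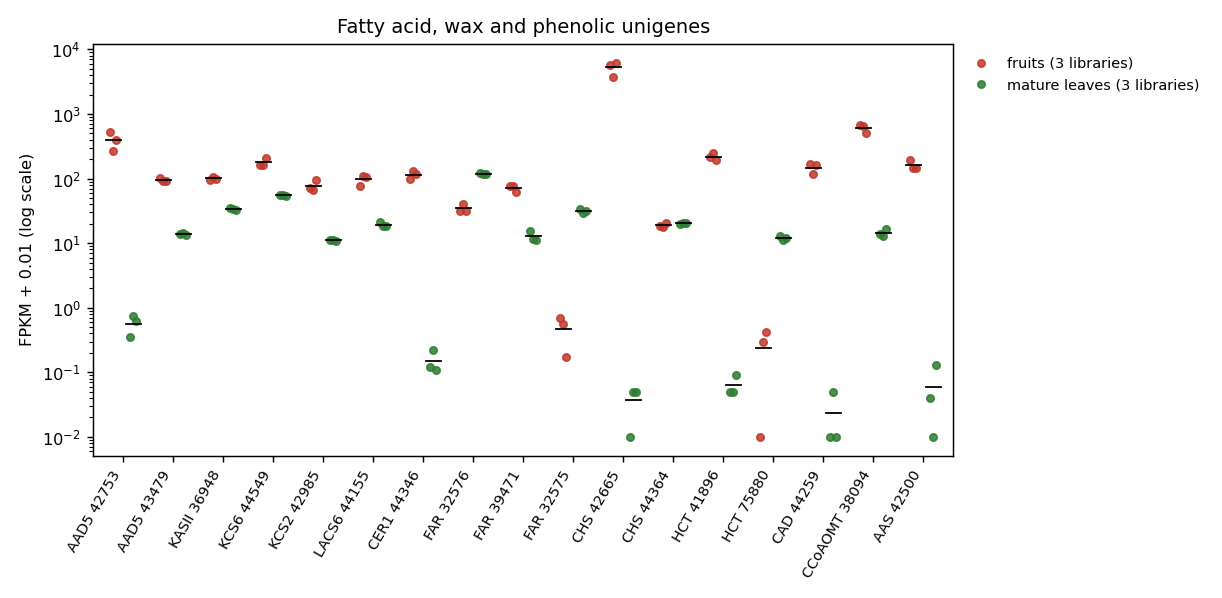
FPKM plus 0.01 on a log axis for 17 fatty acid, wax and phenolic unigenes, with the last part of each identifier after its name. Each point is 1 library (3 of fruits in red, 3 of mature leaves in green) and bars are means, with FAR Cluster-12235.32576 and FAR Cluster-12235.39471 in opposite directions (log2 fold changes -1.90 and 2.38) and CHS Cluster-12235.44364 level between the organs.

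Most members of the photosynthesis lists were lower in fruits. Of 18 tested antenna proteins, which capture light around the photosystems, 14 were lower in fruits and none higher (median log2 fold change -1.52), against 14.0% lower over all unigenes. The most abundant, Cluster-12235.35682, had 3868, 4936 and 5344 FPKM in fruits, against 11502, 11914 and 11612 FPKM in mature leaves (log2 fold change -1.42). Of 16 tested members of the photosynthesis list 12 were lower and none higher (median -1.60), and of 10 in porphyrin and chlorophyll metabolism 6 were lower and none higher (median -1.19). In these 3 lists 0 members were higher in fruits at an unadjusted p under 0.05, by edgeR and by the DESeq2 alternative. The proteasome list had 0 DEGs among 10 tested members by either tool, beside 12.2% higher and 14.0% lower over all unigenes by edgeR. At an unadjusted p under 0.05, 6 of its members were higher and 0 lower by both tools.

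Abundant unigenes of carbon fixation and of photorespiration, which recycles a by-product of fixation, were lower in fruits. The carbon fixation list as a whole was not one-sided (2 of 15 tested members higher and 3 lower, median -0.23). These counts are near the 12.2% higher and 14.0% lower over all unigenes. The small subunit of the carbon-fixing enzyme Rubisco (rbcS, Cluster-12235.42921) was the most abundant unigene of mature leaves, with 4239, 4332 and 3916 FPKM in fruits, against 32315, 31096 and 31343 FPKM in mature leaves (log2 fold change -3.02 ± 0.19, SE, adjusted p = 6.37e-11). A second rbcS unigene, Cluster-12235.42084, was lower as well (-4.06), but the third, Cluster-12235.62198, was higher in fruits, with 16.6, 17.2 and 18.4 FPKM, against 0, 0.19 and 0.06 FPKM in mature leaves, and it averaged 21.4 FPKM in roots. Its log2 fold change was 7.46, or 8.71 without the second leaf library. Carbonic anhydrase (Cluster-12235.34421) had 394, 397 and 382 FPKM in fruits, against 5489, 5565 and 5408 FPKM in mature leaves (log2 fold change -3.92). Both unigenes of that name were lower in fruits, while the 2 named cah, a gene name for a carbonic anhydrase, were higher. Of these, Cluster-12235.20004 was near the floor in both organs. It had 0.09, 0.34 and 0.13 FPKM in fruits and 0 FPKM in each mature leaf library, and averaged 37.2 FPKM in roots. Of 6 unigenes named glnA (glutamine synthetase) 3 were lower and 1 higher. The photorespiratory aminotransferase AGXT (Cluster-12235.53759) averaged 49.7 FPKM in fruits and 396 FPKM in mature leaves (-3.14), the malate dehydrogenase MDH2 (Cluster-12235.50063) averaged 34.7 FPKM in fruits and 366 FPKM in mature leaves (-3.52), and glutamine synthetase glnA (Cluster-12235.35952) averaged 63.5 FPKM in fruits and 523 FPKM in mature leaves (-3.16). THI4 (2 of 4 unigenes) and thiC, which make the parts of thiamine, were lower too, with THI4 Cluster-12235.42420 at 2405, 2887 and 2655 FPKM in fruits, against 7146, 7459 and 7311 FPKM in mature leaves (-1.58).

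Sugars of the raffinose family, which in some plants carry carbon in the phloem and protect against drought, had enzymes that differed in opposite directions. Galactinol synthase (GOLS) makes the galactose donor, and all 3 unigenes were lower in fruits. GOLS Cluster-12235.42609 had 159, 164 and 173 FPKM in fruits, against 2514, 2541 and 2453 FPKM in mature leaves (log2 fold change -4.04), and GOLS Cluster-12235.42579 averaged 621 FPKM in fruits and 2343 FPKM in mature leaves (-2.03). GOLS Cluster-12235.5378, with 0.11, 0.09 and 0.03 FPKM in fruits, against 129, 128 and 125 FPKM in mature leaves, was the most negative of the unigenes ranked (-10.75). The next in that ranking have no gene name. Cluster-12235.16229 had 4.38, 4.01 and 2.83 FPKM in fruits, against 1616, 1563 and 1629 FPKM in mature leaves (-8.85), and Cluster-12235.11716 and Cluster-12235.5032 had log2 fold changes of -8.96 and -8.19. Without the first fruit library these were -9.64 and -9.52. Cluster-12235.5418 (-9.93) had 3 counts in fruits and 2934 in mature leaves, a ratio of 1084-fold (95% counting interval 370.7 to 5261). Raffinose synthase, the next enzyme, was higher in fruits, with 111, 59.9 and 84.5 FPKM at Cluster-12235.42889, against 1.44, 1.72 and 1.27 FPKM in mature leaves (5.73), though leaf buds at 559 FPKM and stems at 485 FPKM were above both. Stachyose synthase Cluster-12235.27454, which adds a further galactose, averaged 10.5 FPKM in fruits and 93.3 FPKM in mature leaves (-3.27), while the other stachyose synthase unigene, Cluster-12235.77222, was higher in fruits at a low level, with 0.47, 0.42 and 0.69 FPKM, against 0.06, 0.07 and 0.16 FPKM in mature leaves (2.34).

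Hormone and light-signalling unigenes were at lower FPKM and went both ways. All 4 isopentenyltransferases (IPT), which begin cytokinin synthesis, were lower in fruits. IPT Cluster-12235.14859 had 6.34, 4.69 and 6.37 FPKM in fruits, against 110, 109 and 107 FPKM in mature leaves (log2 fold change -4.35). Both unigenes of CKX, which breaks down cytokinin, were lower too (log2 fold changes -3.91 and -2.56). In the zeatin list, the cytokinin pathway, 5 of 12 tested members were lower and 2 higher, or 1 higher when any of 5 of the 6 libraries was left out, beside 14.0% lower and 12.2% higher over all unigenes. The 3 AHP unigenes, phosphotransfer proteins of cytokinin signalling, were lower as well, with AHP Cluster-12235.5415 at 0.23, 0.34 and 0.34 FPKM in fruits, against 87.7, 77.2 and 86.0 FPKM in mature leaves (-8.19). The other AHP unigenes had 3 counts each in fruits, and mature leaves exceeded fruits 181.8-fold at Cluster-12235.5416 (95% counting interval 61.85 to 884.7) and 146.7-fold at Cluster-12235.5417 (49.84 to 714.5). The light-response factor PIF4 had both unigenes lower in fruits (-5.11 and -6.29). GA2ox, which inactivates gibberellin, had both unigenes higher, and GA2ox Cluster-12235.19063 had 38.9, 22.5 and 35.6 FPKM in fruits and no counts in mature leaves, at least 1441-fold higher in fruits against the floor of 3 counts over the leaf libraries. GA3ox (Cluster-12235.12842), an enzyme of gibberellin synthesis, was higher in fruits too (log2 fold change 6.08). It had 5.61, 3.66 and 6.08 FPKM in fruits, against 0.15, 0.05 and 0 FPKM in mature leaves. The auxin importer AUX1 had 3 unigenes higher and 2 lower, and the auxin-response IAA proteins had 2 higher and 2 lower. Pectinesterases of the cell wall also divided, with 2 unigenes higher and 2 lower, and the higher Cluster-12235.15487 was uneven among fruit libraries, at 29.4, 6.85 and 7.39 FPKM, with no counts in mature leaves.

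**Figure D4:**
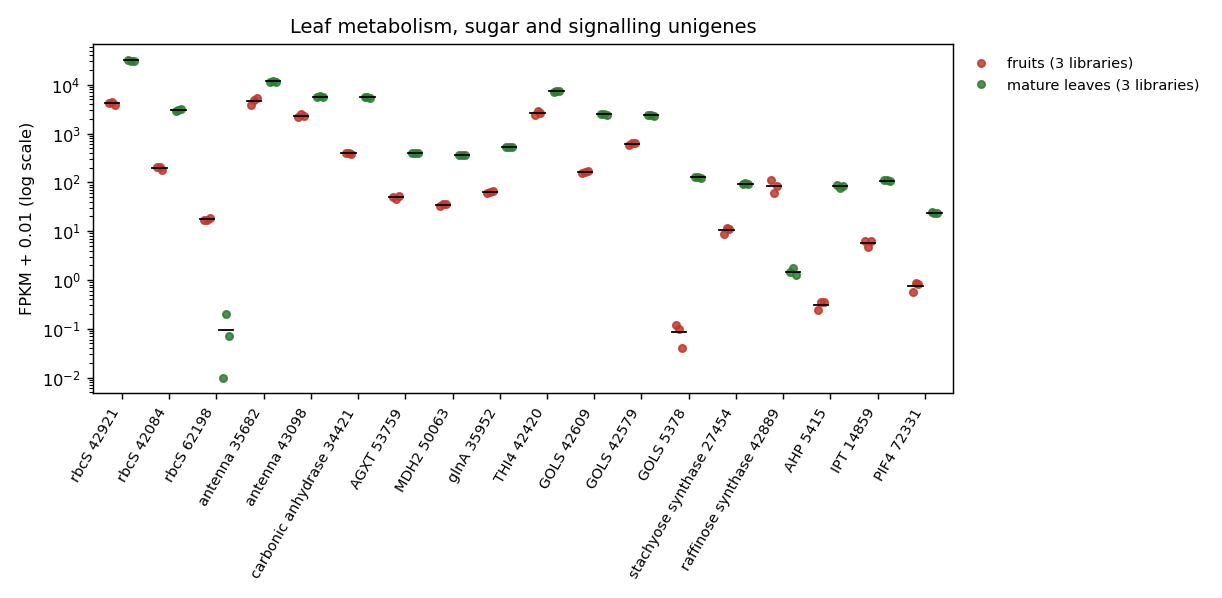
FPKM plus 0.01 on a log axis for 18 unigenes of photosynthesis, photorespiration, thiamine, raffinose sugars and signalling, with the last part of each identifier after its name. Each point is 1 library (3 of fruits in red, 3 of mature leaves in green) and bars are means, with rbcS Cluster-12235.62198 and raffinose synthase Cluster-12235.42889 the 2 shown that were higher in fruits (log2 fold changes 7.46 and 5.73).

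**Figure D5:**
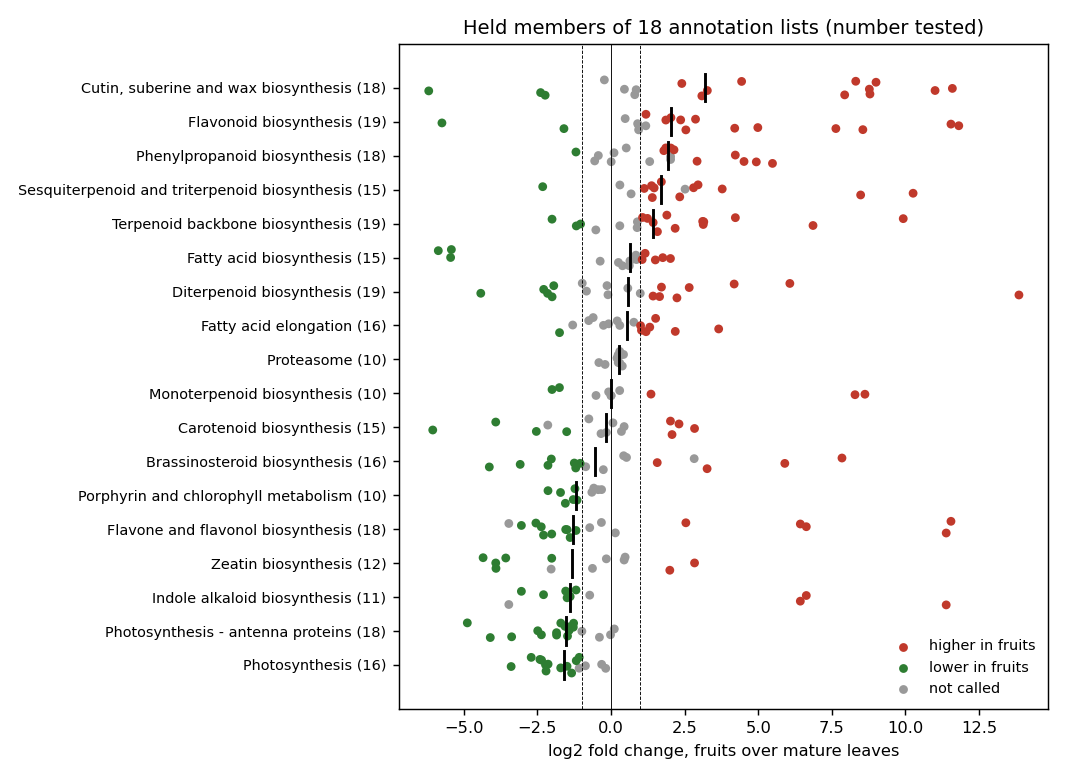
Log2 fold change of fruits over mature leaves for the tested members of 18 annotation lists, ordered by median (black bar), with the number tested in parentheses. Red points are higher in fruits, green points lower and grey points not called, and the medians run from -1.60 in photosynthesis to 3.18 in cutin, suberine and wax biosynthesis.

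Some unigenes had counts in only 1 of the 2 organs, and how many depended on the minimum count set, since a count of 0 is not absence. With at least 30 counts in fruits and 0 in all 3 mature leaf libraries there were 315, of which 67 also had 0 counts in leaf buds, stems and roots. The first of these by count, Cluster-12235.42671, had 52895, 34512 and 52360 FPKM in fruits, 0 in mature leaves and 1 count in the other organs, and it was the second most abundant unigene of fruits. Its level was at least 98110-fold higher in fruits against the floor of 3 counts over the leaf libraries. Cluster-12235.42593 (116473 counts) and Cluster-12235.42778 (67093 counts) followed, both at 0 in all other organs. At a minimum of 10 counts there were 1007 and at 100 there were 116. In the other direction 347 unigenes had at least 30 counts in mature leaves and 0 in all 3 fruit libraries, with 120 at 0 in the other organs too. That number was 607 without the second fruit library and 205 to 221 without any 1 leaf library, and with all libraries it was 1498 at a minimum of 10 counts and 68 at 100. Their counts were far lower. The first, Cluster-12235.75576, had 139, 151 and 137 FPKM in mature leaves from 3158 counts, at least 1167-fold lower in fruits. Cluster-12235.5120 (1179 counts) was at least 435.7-fold lower, and Cluster-12235.4228 had 683 of its 684 counts in 1 leaf library. None of these 6 has a gene name in the tables used here. The transcripts most abundant in both organs were shared, since 3 of the 5 highest in fruits (Cluster-12235.42689, Cluster-12235.42501 and Cluster-12235.42523) were also among the 5 highest in mature leaves. Another of the 5, Cluster-12235.42636, had 33492, 34902 and 31235 FPKM in fruits, against 7577, 7179 and 7396 FPKM in mature leaves (log2 fold change 2.08). On the leaf side Cluster-12235.38001 had 1422, 1522 and 1529 FPKM in fruits, against 16113, 16708 and 16545 FPKM in mature leaves (-3.57).

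The place of fruits and mature leaves among the 5 organs differed by direction. Of the 7032 DEGs higher in fruits, fruits had the highest mean of the 5 organs in 2819 (40.1%), and mature leaves had the lowest in 4453 (63.3%), by TMM-scaled counts. Of the 8030 DEGs lower in fruits, fruits had the lowest mean in 2025 (25.2%), and mature leaves had the highest in 6186 (77.0%). Roots were the lowest organ for a further 3553 (44.3%) of the lower DEGs. Polyphenol oxidase illustrates a DEG higher in fruits whose top organ is another, with Cluster-12235.43804 at 318, 383 and 308 FPKM in fruits, against 64.2, 67.1 and 65.8 FPKM in mature leaves, and 2910 FPKM in leaf buds.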

How the data were processed

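RNA-seq libraries of 15 samples, 3 for each of the 5 organs, were sequenced on an Illumina HiSeq platform. The authors trimmed the reads, assembled unigenes de novo with Trinity, counted reads per unigene and deposited expected counts and FPKM per library. The aligner and counter are not given in the sources used here, and no strand setting is stated. CASAVA 1.8 is named in the submitters' processing notes. Expected counts, as deposited by the authors, are not all whole (11.7% to 15.3% of values) and were rounded. Unigene sequences were not analysed here.

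Counts were tested with edgeR 4.0.16 (R 4.3.3) by the quasi-likelihood method in 1 model of 5 organs and 15 libraries with 10 residual degrees of freedom, with TMM scaling and the default low-count filter (minimum count 10, minimum total 15). DESeq2 1.42.0 served as an alternative. SE was derived from the fold change and its F statistic (their ratio, after taking the root of F). On simulated data 98% to 100% of changed unigenes were recovered, with 3 false calls among 54589. The changed unigenes, 50 at each log2 fold change of 2, -2, 3 and -3, all had a mean over 1 CPM. No other difference between organs was simulated. Changes nearer the threshold, or in unigenes of lower count, were not covered, so these are not error rates of the DEGs above. Where an organ had 0 counts, fold bounds used a floor of 3 counts over its libraries; where it had 1 to 3, ratios carry exact binomial intervals. Both cover counting error only.

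Gene names come from the study's supplementary annotation of unigenes that it listed as organ-specific or as differing in fruits, and 479 tested unigenes carry one. The annotation lists are held in part. Members and lists were chosen with earlier results of these data known. Named were: per enzyme group or gene name, the member with the highest mean FPKM and members that differ from it; per list, its 2 most abundant members; the 5 extremes in each direction with a mean of at least 50 FPKM in the higher organ and no overlap; the 3 with most counts in 1 organ only; and the 5 most abundant per organ. AGXT, carbonic anhydrase, THI4, thiC, IPT, stachyose synthase, polyphenol oxidase, ANS, DFR, ANR, NES1 and any further member named with its values were chosen after their values were seen.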

Additional observations from a re-analysis of the deposited data

How the results depend on the processing

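The DEG counts (7032 higher and 8030 lower in fruits) stayed within 1.5 times under DESeq2 size factors, DESeq2's Wald test, library totals only, other count filters, the 6 libraries alone and leaving out any 1 library. Leaving out 1 library gave 6723 to 6941 higher and 7590 to 7984 lower, with 46.4% to 47.8% of DEGs higher. They moved under glmTreat, which tests the fold threshold itself (4571 higher and 4951 lower), and at an absolute log2 fold change over 2 (3727 and 3701, or 50.2% higher). With library totals in place of TMM, 7862 were higher and 7082 lower, 52.6% against 46.7%, so the direction of the majority rests on the scaling, and the median log2 fold change was 0.03 in place of -0.06. Replicate numbers did not pair the samples (correlations of deviations from -0.007 to 0.011 for equal numbers), and a replicate block gave 6927 higher and 7891 lower. No named unigene that was called in the main fit or in the alternative turned its direction between them. Sign changes of unigenes called in neither were not counted. Of 335 named, 31 lost the call under glmTreat and 0 to 10 under each other setting, apart from those left untested: 36 with the 6 libraries alone, 30 at 1 CPM in 3 libraries and 2 without the second fruit library. Unigenes found in 1 organ only depended on the minimum count: 1007 in fruits at 10 and 116 at 100, and 1498 in mature leaves at 10 and 68 at 100. Leaving out 1 library gave 219 to 413 in fruits and 205 to 607 in mature leaves, the highest without the second fruit library. In the zeatin list 2 members were higher, and 1 without any of 5 of the 6 libraries. In the indole alkaloid list 6 were lower, and 3 without the first or the third fruit library. By FPKM the shares in the order of organs were 32.4% (fruits highest) and 66.0% (mature leaves highest). Depth limits the low-FPKM unigenes, for which a count of 0 is not absence.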
